A study of Homo sapiens with 4 samples.

Results

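The genes described here act in the repair of DNA double-strand breaks: 45 genes out of 58037 genes in a table of RNA-Seq counts. They were chosen by symbol from known function, but with earlier results of these data known. All 45 were found in the table by Ensembl identifier, and 44 had enough reads to be tested. Following the roles of their products, 13 belong to homologous recombination, 12 to the Fanconi pathway, 7 to DNA end resection and the helicases, 7 to classical end joining, 4 to break signalling and 2 to theta-mediated joining.

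The cells were OCI-AML3, an established line of acute myeloid leukemia with heterozygous mutation of NPM1 and of DNMT3A and homozygous mutation of NRAS. The mutations of DNMT3A and NRAS were shared by both groups, and mutant NPM1 was the target in one. They were transfected either with sgNPM1A, a CRISPR-Cas9 guide directed at the mutant NPM1 allele (mtNPM1), or with a negative guide (sgRNA Ctrl, sgNeg in the labels), and RNA was taken 72 hours later, with 2 libraries in each group. The study calls the libraries biological replicates, while the labels do not say whether they came from separate cultures. Each library is a transfected bulk pool and not a clone, so edited and unedited cells were sequenced together, and fewer cells of a type cannot be told apart from less RNA per cell. Total counts ran from 25069484 to 28276391 per library, and 3 counts in a library, the floor used here, equal 0.108 to 0.118 CPM (counts scaled to the depth of the library). The gene count of NPM1, which adds up mutant and wild-type transcripts and so does not read the edit itself, was 33522 and 35881 with sgRNA Ctrl and 33154 and 31428 with sgNPM1A (log2 fold change -0.22, edgeR adjusted p = 0.0360, under the fold threshold used below; -0.42 and past it with limma-trend on quantile-normalized values). Of 8 myeloid markers, all were detected and 6 rose with sgNPM1A (LYZ, encoding lysozyme, by 3.63 on the log2 scale). Their summed level went from 2780 and 2879 CPM to 6225 and 6859 CPM. Most of that rise was LYZ alone, from 271 and 215 CPM to 2643 and 3367 CPM. CD33 (0.06) and CEBPA (0.04) did not pass the test used below. Defining markers of T cells, red cells and epithelium had at most 3 counts in any library, and the B cell markers MS4A1 and CD79A had 0 and at most 6.

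A cell with a broken chromosome can copy the lost sequence from the sister chromatid, which is homologous recombination, or join the ends directly. In recombination the MRN complex (MRE11, RAD50 and NBN) and RBBP8 begin to trim the ends, nucleases and helicases lengthen the single strand, and BRCA1, PALB2 and BRCA2 load the strand-exchange recombinase with the help of its paralogs (RAD51B, RAD51C, RAD51D, XRCC2 and XRCC3). In end joining the Ku proteins XRCC5 and XRCC6 hold the ends, the kinase PRKDC binds them and LIG4 seals them with XRCC4. The Fanconi pathway removes crosslinks between the strands: a core complex with the E2 enzyme UBE2T attaches ubiquitin to the pair FANCI and FANCD2, which directs incision and recombination. Many recombination and Fanconi genes are transcribed mostly in cells that are replicating DNA, and TP53BP1 and BRCA1 act against each other in the choice between the routes.

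The promoters of the called members are shown first, since they are where transcription of these genes begins. Of the members, 39 have a RefSeq promoter window (GRCh38.p14, 250 bases before and 50 after the start); for FANCI, WRN, XRCC5, NBN, RAD54B and PRKDC there is none in the table used. The windows printed are RAD51C (chr17:58692323-58692622, plus strand), TP53BP1 (chr15:43510591-43510890, minus strand), FANCA (chr16:89816598-89816897, minus strand) and BRCA1 (chr17:43125315-43125614, minus strand, at the start that faces NBR2). The first and the second belong to called members, and the others were added after their values were seen. In FANCA the capitals mark an E2F motif read on the opposite strand, which begins 172 bases before the start. In BRCA1 they mark the 193 bases between the starts of NBR2 and BRCA1, genes that are transcribed away from each other.
RAD51C: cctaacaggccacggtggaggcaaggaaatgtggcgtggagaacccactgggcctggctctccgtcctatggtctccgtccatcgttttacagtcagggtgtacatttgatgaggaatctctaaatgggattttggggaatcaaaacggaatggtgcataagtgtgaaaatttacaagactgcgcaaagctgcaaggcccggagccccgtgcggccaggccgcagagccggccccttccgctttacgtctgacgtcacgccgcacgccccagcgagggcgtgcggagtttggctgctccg
TP53BP1: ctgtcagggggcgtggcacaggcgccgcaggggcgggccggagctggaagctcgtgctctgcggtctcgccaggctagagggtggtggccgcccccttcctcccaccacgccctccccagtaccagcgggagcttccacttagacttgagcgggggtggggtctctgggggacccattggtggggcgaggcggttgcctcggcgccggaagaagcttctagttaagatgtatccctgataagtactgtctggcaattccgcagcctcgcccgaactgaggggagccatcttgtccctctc
FANCA: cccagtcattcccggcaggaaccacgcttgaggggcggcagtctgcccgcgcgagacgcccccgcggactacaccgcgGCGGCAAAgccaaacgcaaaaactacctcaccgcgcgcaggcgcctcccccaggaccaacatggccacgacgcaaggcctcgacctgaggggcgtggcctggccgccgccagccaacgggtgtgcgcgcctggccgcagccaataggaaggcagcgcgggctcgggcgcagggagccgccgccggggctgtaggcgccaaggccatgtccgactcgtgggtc
BRCA1: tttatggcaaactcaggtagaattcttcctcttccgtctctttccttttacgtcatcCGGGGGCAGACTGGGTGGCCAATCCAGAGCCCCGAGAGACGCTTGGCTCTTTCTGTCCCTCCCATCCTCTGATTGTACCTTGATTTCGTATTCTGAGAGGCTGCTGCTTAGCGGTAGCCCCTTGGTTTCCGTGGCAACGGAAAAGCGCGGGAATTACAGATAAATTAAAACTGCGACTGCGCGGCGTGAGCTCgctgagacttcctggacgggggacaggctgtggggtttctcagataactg
E2F proteins bind TTTCCCGC, TTTCGCGC, TTTGCCGC or TTTGGCGC, and these 4 words, searched on both strands, were in the windows of 6 of 39 members (15.4%), against 3.99% of 27305 genes with a window and 5.40% of 15843 protein-coding genes. They were EXO1, FANCA, FANCC, FANCD2, XRCC2 and XRCC6. CHR elements (TTTGAA or TTCGAA), short sites of late cell cycle genes, were in 5 of 39 windows (12.8%), against 19.5% of all windows and 17.5% of the protein-coding ones, and FANCC held both kinds. The windows of RAD51C, TP53BP1 and BRCA1 hold neither motif. A match of letters is a description of the window and not a bound site.

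The comparison of sgNPM1A with sgRNA Ctrl asks how the transcripts of these genes differed after transfection with the guide directed at mtNPM1. In this design, effects of DNA cutting by that guide, at NPM1 or elsewhere, cannot be told apart from those of losing mtNPM1. Few of them were called as changed: FANCI and TP53BP1 fell and RAD51C rose. The other 41 tested members were not called, which does not mean that they were unchanged. A gene was called at an adjusted p under 0.05 over all 15718 tested genes together with a level at least 25% higher or 20% lower, the fold threshold in what follows (edgeR quasi-likelihood test, Benjamini-Hochberg adjustment). The 2 members called lower are 4.55% of those tested, while 10.3% of all tested genes were called lower. The member called higher is 2.27% of them, against 10.5% of all tested genes. Without the fold, 4 members were lower at the adjusted p, FANCA and UBE2T being added, which is 9.09% beside 13.1% of all genes, and 1 was higher, beside 12.9% of all genes. DESeq2 and limma-trend each called 2 lower and 1 higher, the same 3 genes.

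FANCI encodes the partner of FANCD2 in the clamp that ubiquitin locks onto damaged DNA (ENSG00000140525.17, chromosome 15, 89243979 to 89317259 on GRCh38). Its counts were 1731 and 1680 with sgRNA Ctrl and 1396 and 1405 with sgNPM1A, in libraries that were deeper with sgNPM1A. Scaled to depth this was 68.1 and 64.9 CPM against 50.1 and 50.6 CPM. Both sgNPM1A libraries thus lay well below both controls and close to each other. The log2 fold change was -0.40 (SE 0.0740, adjusted p = 0.00221, edgeR), a level 1.32-fold lower, and dropping any 1 library kept it called, between -0.43 and -0.37. With the opposite-strand gene POLG, whose fold change was 0.10 on the log2 scale, FANCI shares 2.57% of its exon bases.

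TP53BP1 encodes 53BP1, which binds chromatin around a break and holds back resection (ENSG00000067369.13, chromosome 15, 43403061 to 43510640). The counts were 1086 and 889 with sgRNA Ctrl and 777 and 881 with sgNPM1A, or 42.7 and 34.3 CPM against 27.9 and 31.7 CPM. The groups did not overlap, but the lower control lay nearer to the higher sgNPM1A library than to the other control. The log2 fold change was -0.37 (SE 0.112, adjusted p = 0.0315, edgeR), 1.29-fold lower. Leaving out sgRNA Ctrl library 1 gave -0.20 (adjusted p = 0.188) and leaving out sgNPM1A library 1 gave -0.28 (adjusted p = 0.195), so that the call rests on both. Of its exon bases 28.8% are shared with TUBGCP4 on the opposite strand (log2 fold change -0.18, adjusted p = 0.241, edgeR); whether the counting used strand is not given in the sources used here.

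RAD51C encodes a subunit of both paralog complexes, with RAD51B, RAD51D and XRCC2 in one and with XRCC3 in the other (ENSG00000108384.14, chromosome 17, 58692573 to 58735611). Counts of 870 and 967 with sgRNA Ctrl stood against 1291 and 1208 with sgNPM1A. On the scale of CPM these were 34.2 and 37.3 against 46.3 and 43.5, with no overlap between the groups. The log2 fold change was 0.33 (SE 0.0841, adjusted p = 0.0146, edgeR), 1.26-fold higher and barely over the fold threshold. Scaling by library size alone gave 0.29 and upper quartile factors 0.32, both under the fold. The call was also lost without sgRNA Ctrl library 1 (0.27, adjusted p = 0.0530, edgeR) and without sgNPM1A library 1 (0.28, adjusted p = 0.163, edgeR). No exon base of RAD51C is shared with another gene.

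**Figure D1:**
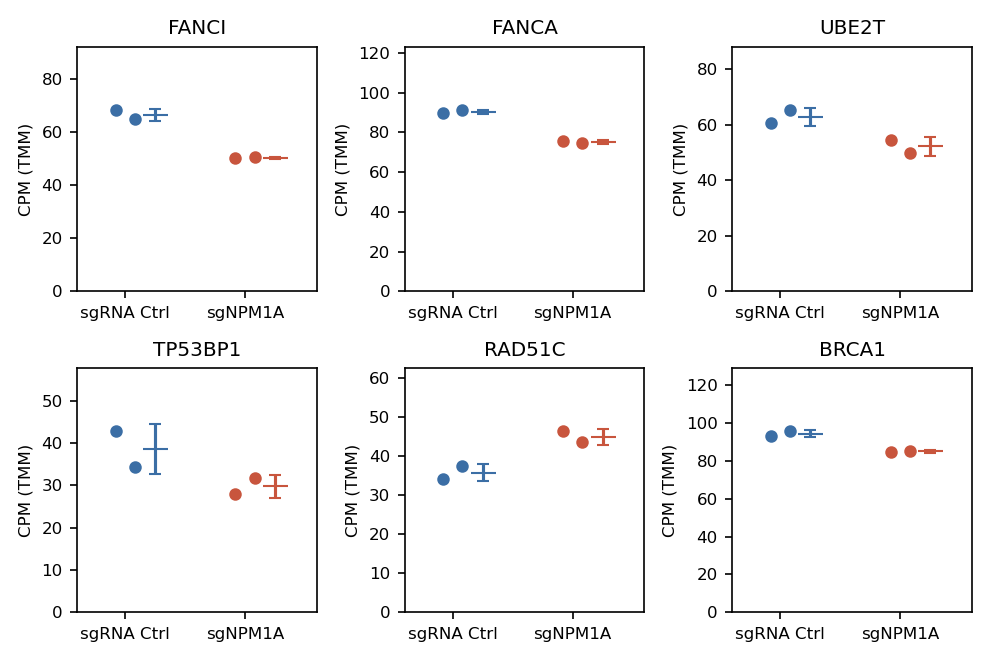
Level in TMM-scaled CPM (y axis from 0) of FANCI, FANCA, UBE2T, TP53BP1, RAD51C and BRCA1 in each library (points; sgRNA Ctrl blue, sgNPM1A red), with mean and SD of the 2 libraries beside them. RAD51C is higher in both sgNPM1A libraries, at 43.5 and 46.3 CPM, and the other 5 genes are lower in both.

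Although few members were called, most leaned downward. The fold change was negative in 31 of 44 members (70.5%), against 7854 of 15718 tested genes (50%). The median log2 fold change was -0.11 over the members and 0.00 over all tested genes, and it stayed at -0.11 over the 38 members that averaged 10 CPM or more, 28 of them negative. By library, the members' median deviation from the sgRNA Ctrl mean was 0.007 and -0.007 in the controls and -0.113 and -0.077 with sgNPM1A (log2 scale). The 2 control values mirror each other by construction, since each gene was centred on the mean of the controls. The spread between replicates had a pooled SD of 0.019, from only 2 libraries per group. The libraries of the groups did not overlap, with sgNPM1A lower, in 18 members (40.9%), beside 31.7% of all tested genes, and with sgNPM1A higher in 7 (15.9%), beside 31.4%. At an unadjusted p under 0.05, 11 members (25%) were lower, beside 19% of all tested genes, and 1 was higher (2.27%), beside 18.5%. The 95% interval of the fold change comes from the same test, so by construction it lay below zero in the same 11 members. In 22 of 44 it lay wholly within the fold threshold in both directions. These lists were chosen with earlier results known, and the medians describe them without a test.

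**Figure D2:**
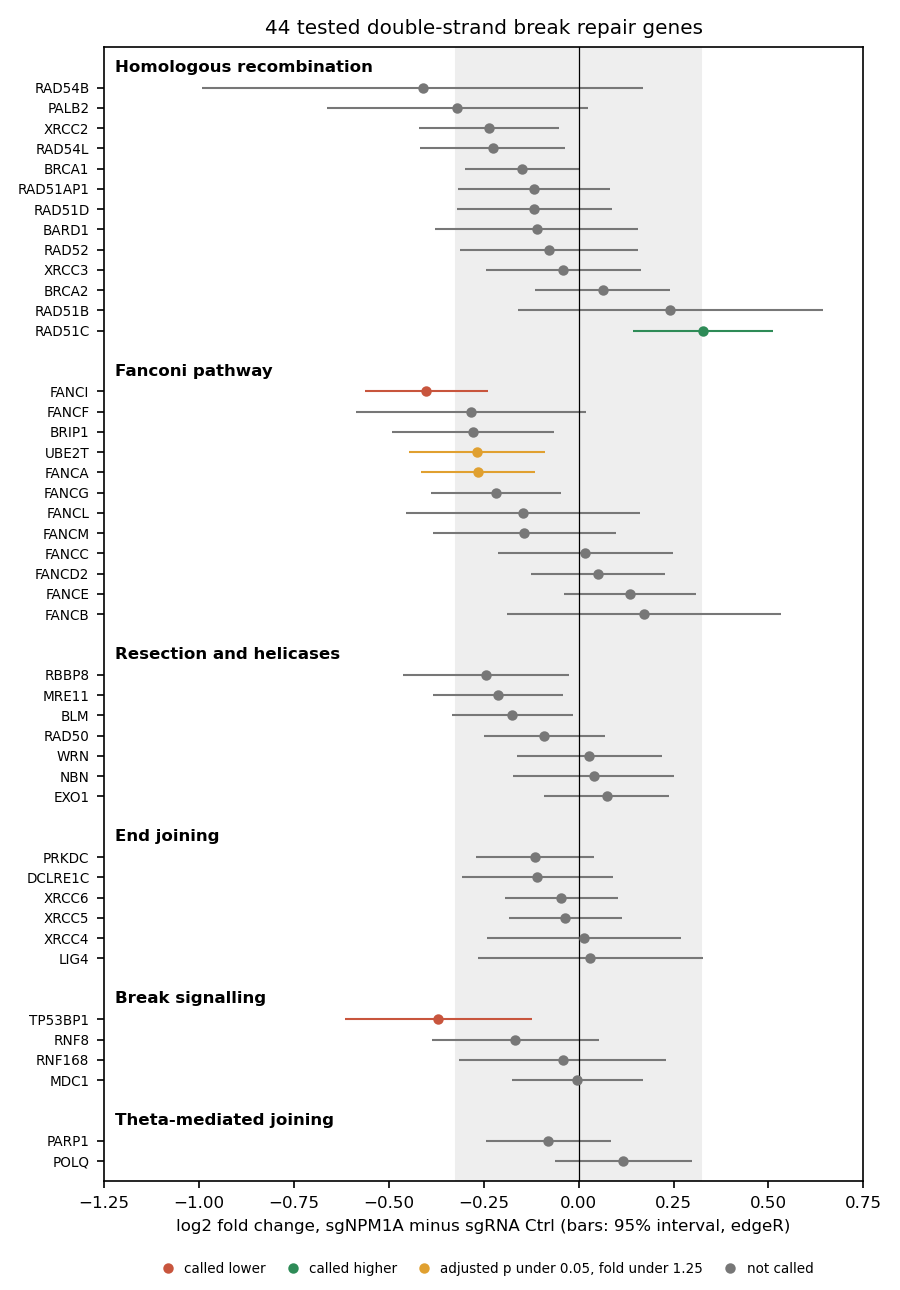
Fitted log2 fold change of each tested member, sgNPM1A minus sgRNA Ctrl (points), with its 95% interval from edgeR (bars), grouped by role; grey shading marks changes under the fold threshold. FANCI and TP53BP1 (red) are called lower and RAD51C (green) higher, while 22 of 44 intervals lie within the shading.

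Among the 13 genes of homologous recombination, RAD51C rose, none fell by the call, and 10 fold changes were negative (median -0.12). The gene of this role with the highest count was BRCA1, the ubiquitin ligase subunit that favours resection, at 92.8 and 95.4 CPM with sgRNA Ctrl and 84.4 and 85.3 CPM with sgNPM1A. All 4 values of BRCA1 fall in 2 tight pairs, with a log2 fold change of -0.15 that did not pass (SE 0.0681, adjusted p = 0.134, edgeR). Its ligase partner BARD1 (12.6 ± 1.54 CPM against 11.7 ± 0.311 CPM, SD, n = 2) overlapped between the groups. BRCA2, which carries the recombinase to single-stranded DNA, was at 32.2 ± 0.370 CPM and 33.6 ± 0.0410 CPM (log2 fold change 0.06). PALB2, which joins BRCA1 to BRCA2, had 12.6 and 10.0 CPM with sgRNA Ctrl and 7.93 and 10.2 CPM with sgNPM1A, overlapping values with a fold change of -0.32 (adjusted p = 0.162, edgeR). Without sgNPM1A library 2 PALB2 would be called (-0.51, adjusted p = 0.0485, edgeR), and without library 1 of the same group it was at -0.15.

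The paralogs of the recombinase did not move together. XRCC2 was lower in both sgNPM1A libraries, at 37.2 and 37.3 CPM against 30.4 and 33.0 CPM (log2 fold change -0.24, adjusted p = 0.0608, edgeR), and did not pass. RAD51D (-0.12) and XRCC3 (-0.04) overlapped between the groups; for XRCC3, 76.7% of the exon bases also belong to KLC1 on the opposite strand, a gene at -0.26. RAD51B, at only 70 to 96 counts per library, had a fold change of 0.24 with an interval from -0.16 to 0.64. Of the genes that remodel or assist the recombinase, RAD54L, a motor protein, was at 35.0 ± 2.36 CPM against 29.9 ± 0.437 CPM (-0.23, adjusted p = 0.0776, edgeR) and shares 19.9% of its exon bases with LRRC41 (-0.28). RAD51AP1 was at -0.12 and the annealing protein RAD52 at -0.08, neither past the test. RAD54B, with 32 to 52 counts, was at -0.41 with an interval from -0.99 to 0.17, too wide at this depth to say whether it moved. Of its exon bases, 66.0% are also annotated to FSBP on the same strand, a row with 0 counts in each library.

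The Fanconi pathway held the called gene with the largest decline, FANCI, and the lowest median of the roles, -0.18 over 12 genes, 8 of them negative. FANCA and UBE2T were also lower at the adjusted p but under the fold. FANCA, a subunit of the core complex and the member of this role with most reads per gene, was at 89.5 and 91.0 CPM against 75.8 and 74.5 CPM (-0.26, SE 0.0687, adjusted p = 0.0153, edgeR). UBE2T, the E2 enzyme that ubiquitylates FANCI and FANCD2, was at 60.5 and 65.2 CPM against 54.6 and 49.8 CPM (-0.27, SE 0.0810, adjusted p = 0.0316, edgeR; 0.0564 with DESeq2). In each the libraries of the groups were apart, but neither kept the adjusted p without sgNPM1A library 1 (FANCA 0.155, UBE2T 0.0824, edgeR) or library 2 (0.218 and 0.384, edgeR), nor UBE2T without sgRNA Ctrl library 2 (0.102). FANCA shares 19.6% of its exon bases with ZNF276, whose own fold change was 0.08, and UBE2T shares none.

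Among the remaining Fanconi genes, FANCG of the core complex was lower in both sgNPM1A libraries (76.8 ± 6.04 CPM against 66.0 ± 0.277 CPM, -0.22, adjusted p = 0.0607, edgeR). BRIP1, the helicase partner of BRCA1, lay at 20.0 ± 0.320 CPM against 16.5 ± 0.743 CPM (-0.28, adjusted p = 0.0566, edgeR). Neither passed, although in both the groups did not overlap. FANCF (-0.28), FANCL, the E3 ligase (-0.15), and FANCM, the translocase that anchors the complex (-0.14), did not pass either. Positive values were found for FANCB (0.17), FANCE (0.13), FANCD2 (0.05) and FANCC (0.02), none past the test; for FANCB, 6.17% of its 50-base words recur elsewhere, among them in NPM1 and its pseudogenes. FANCD2, which works as a pair with FANCI, was at 56.5 and 63.5 CPM with sgRNA Ctrl and 63.1 and 61.3 CPM with sgNPM1A, overlapping values.

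None of the 7 genes of end resection and the helicases was called by edgeR, DESeq2 or limma-trend, while 3 (RBBP8, MRE11 and BLM) were lower at an unadjusted p under 0.05, which 19% of all tested genes were. RAD50, the scaffold of the MRN complex, was highest in reads at 75.3 ± 0.934 CPM against 70.7 ± 3.06 CPM (-0.09), although 76.9% of its exon bases are also annotated to a read-through gene with no row in the table. NBN, the subunit that recruits ATM, was at 73.6 and 60.2 CPM against 66.0 and 71.5 CPM, the controls enclosing both sgNPM1A libraries (0.04). The nuclease MRE11 was at 43.9 and 45.8 CPM against 38.9 and 38.5 CPM (-0.21, adjusted p = 0.0687, edgeR). RBBP8, or CtIP, which starts resection, was at -0.24 (adjusted p = 0.0966, edgeR) and the helicase BLM at -0.17 (adjusted p = 0.103, edgeR). EXO1, the nuclease of long-range resection, was at 0.07 and the Werner helicase WRN at 0.03.

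Classical end joining was the most abundant group and showed no call by edgeR, DESeq2 or limma-trend and, by edgeR, no gene at an unadjusted p under 0.05. XRCC6, or Ku70, was at 694 and 658 CPM with sgRNA Ctrl and 642 and 668 CPM with sgNPM1A, and the log2 fold change of -0.05 had an interval from -0.19 to 0.10. PRKDC, the catalytic kinase subunit, was at 699 and 645 CPM against 604 and 637 CPM (-0.11, interval -0.27 to 0.04). XRCC5, or Ku80, was at -0.03 (interval -0.18 to 0.11). For these 3 genes a change as large as the fold threshold, in either direction, lies outside the interval. DCLRE1C, or Artemis, a nuclease that opens hairpin ends, was at -0.11, LIG4 at 0.03 and XRCC4 at 0.01. NHEJ1, or XLF, had 2 and 1 counts with sgRNA Ctrl and 4 and 8 with sgNPM1A and was the member left out of the test; most of these values are at or near the floor of 3 counts and no fold is given. In XRCC6, 13.0% of the 50-base words also occur elsewhere, mostly in pseudogenes.

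All 4 genes of break signalling were negative (median -0.10), and TP53BP1 was the only one called. MDC1, the scaffold that reads phosphorylated H2AX, was at 144 and 124 CPM against 131 and 137 CPM, overlapping values with a fold change that rounds to zero (interval -0.18 to 0.17). RNF8, the first ubiquitin ligase in the chain, was at 19.7 and 18.1 CPM against 17.1 and 16.5 CPM (-0.17, adjusted p = 0.253, edgeR), and RNF168, the second, overlapped between the groups (-0.04). In theta-mediated joining, PARP1, which marks breaks with ADP-ribose, was at 549 and 491 CPM against 479 and 506 CPM (-0.08). POLQ, the polymerase of this route, was at 33.9 and 32.0 CPM against 35.3 and 36.2 CPM (0.12, adjusted p = 0.332, edgeR). Neither was called by any of the 3 tools or had an unadjusted edgeR p under 0.05, and both intervals lay within the fold threshold.

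Per kilobase of the canonical transcript, the members spanned from 0.584 CPM per kb for RAD54B, whose exon sharing is given above, to 319 for XRCC6 with sgRNA Ctrl, leaving aside NHEJ1. The 5 highest were XRCC6, XRCC5 (189), PARP1 (131), UBE2T (71.6) and PRKDC (49.9), so 3 of the 5 belong to end joining. BRCA1 (13.3), XRCC3 (13.3), RAD51C (14.0) and FANCI (14.0) were neighbours in this order. With sgRNA Ctrl the libraries of FANCI (14.4 and 13.7 CPM per kb) and RAD51C (13.4 and 14.6) overlapped, whereas with sgNPM1A FANCI was at 10.6 and 10.7 and RAD51C at 18.1 and 17.0. The first 8 genes, down to MDC1 (19.2) and EXO1 (17.5), stood in the same order in both groups; FANCA was ninth with sgRNA Ctrl and RAD51C with sgNPM1A.

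**Figure D3:**
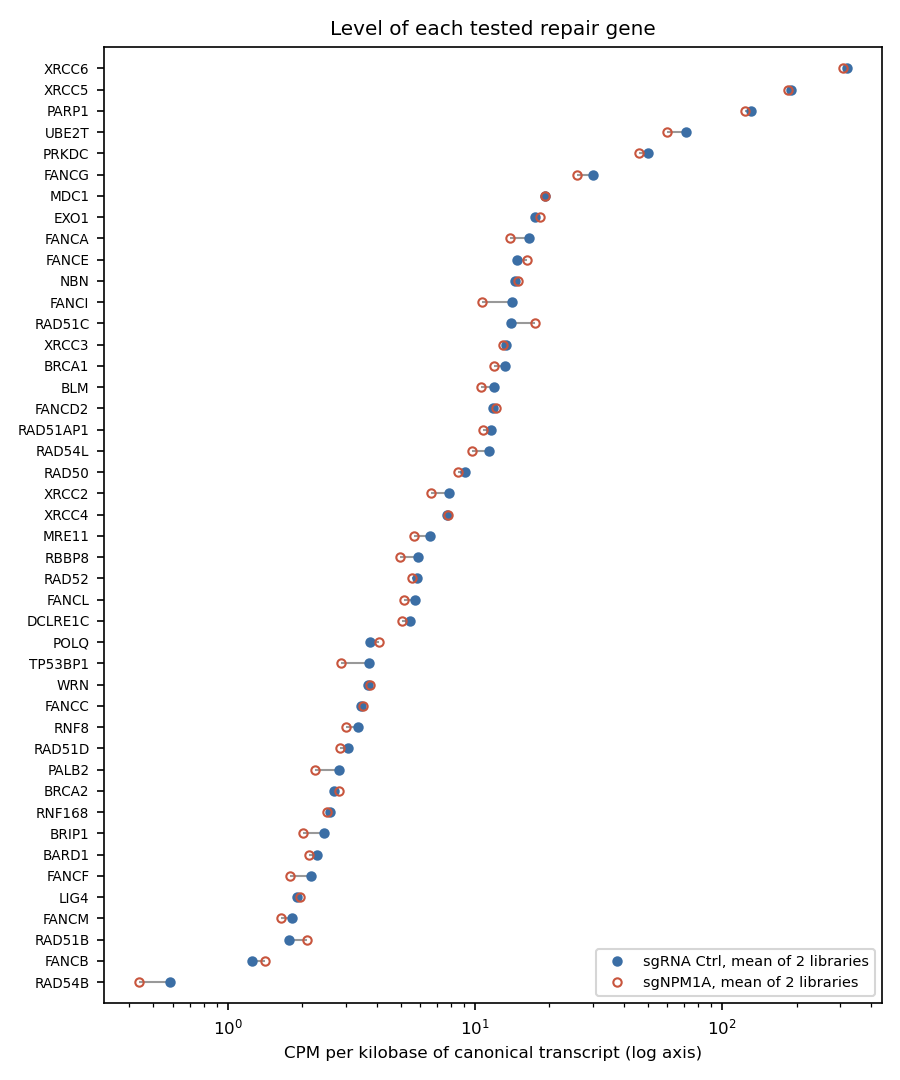
Level of the 44 tested members in CPM per kilobase of the canonical transcript (log axis), mean of 2 libraries with sgRNA Ctrl (filled) and with sgNPM1A (open), sorted by the sgRNA Ctrl level. The distance between the points of a gene is small beside the range over genes, from 0.584 to 319 CPM per kb with sgRNA Ctrl.

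Ratios inside a library do not depend on its depth or scaling, and 12 pairs of genes whose products act together were compared in this way; the pairs come from known complexes and were set after the values of single genes had been seen. With 2 libraries against 2 the smallest two-sided p of an exact permutation test is 0.333, and the values stand as descriptions. FANCI to FANCD2 was 1.21 and 1.02 with sgRNA Ctrl and 0.794 and 0.826 with sgNPM1A, a shift of -0.45 on the log2 scale. RAD51C to RAD51D went from 1.14 and 1.20 to 1.54 and 1.65 (0.45), RAD51C to XRCC3 from 1.08 and 1.01 to 1.40 and 1.30 (0.36) and RAD51C to XRCC2 moved by 0.56. RAD51C to RAD51B overlapped between the groups (0.09). RAD51C was thus high relative to 3 of its 4 paralog partners, and FANCI low relative to FANCD2, in both sgNPM1A libraries.

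XRCC5 to XRCC6 was 0.942 and 0.949 with sgRNA Ctrl and 0.948 and 0.956 with sgNPM1A, overlapping values and the narrowest range of the 12 pairs. BRCA1 to BARD1 (-0.04), XRCC4 to LIG4 (-0.02) and UBE2T to FANCL (-0.13) also overlapped. MRE11 was lower relative to RAD50 (-0.12) and to NBN (-0.26), and BRCA2 was higher relative to PALB2 (0.39), each without overlap between the groups. In all, 7 of 12 ratios did not overlap, 3 lower and 4 higher with sgNPM1A. Among all single genes tested, 31.7% did not overlap with sgNPM1A lower and 31.4% with sgNPM1A higher. No such share was computed for other pairs of genes, so the count is not read as a result about these pairs.

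**Figure D4:**
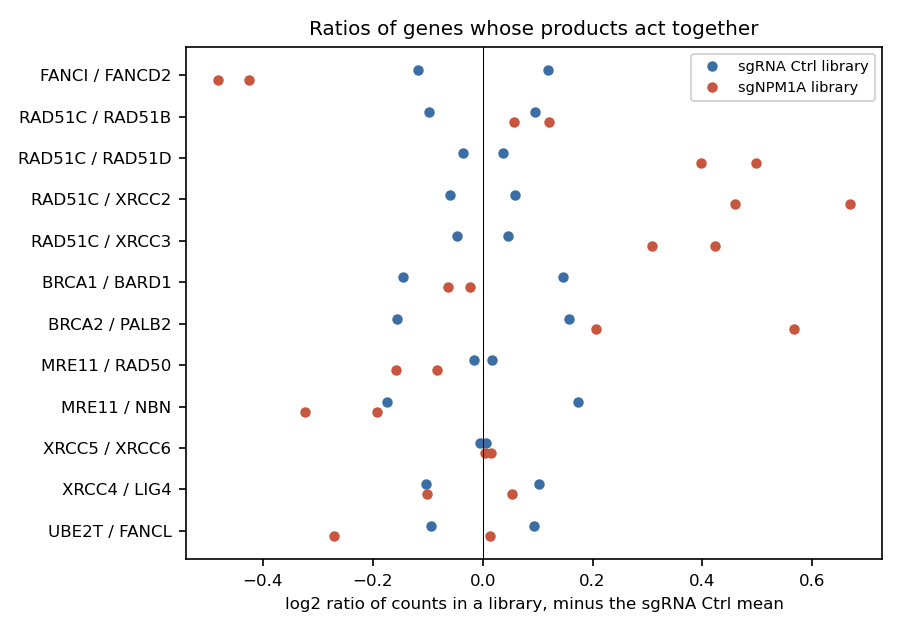
Ratio of counts for 12 pairs of genes in each library, as log2 of the ratio minus its sgRNA Ctrl mean (x axis; sgRNA Ctrl blue, sgNPM1A red). FANCI to FANCD2 is lower in both sgNPM1A libraries, RAD51C to RAD51D, XRCC2 and XRCC3 are higher in both, and XRCC5 to XRCC6 lies near zero in all 4.

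To see whether the genes around the members moved too, 55 partners of the same pathways were listed by role, of which 53 were tested (ATRIP and SLX1A were not). Called were 1 lower and 2 higher, 1.89% and 3.77% of the tested partners, beside 10.3% and 10.5% of all tested genes. FAN1, a nuclease that acts with FANCI and FANCD2, fell from 18.3 and 22.1 CPM to 15.4 and 16.0 CPM (-0.37, SE 0.113, adjusted p = 0.0345, edgeR; 0.0721 with DESeq2). It shares 8.96% of its exon bases with MTMR10 on the opposite strand, which had 583 and 559 counts with sgRNA Ctrl and 405 and 414 with sgNPM1A. SWI5, which assists the recombinase, rose from 9.64 and 10.8 CPM to 14.0 and 14.0 CPM (0.45, SE 0.115, adjusted p = 0.0133, edgeR), with 7.10% of its exon bases shared with TRUB2 on the opposite strand. BABAM2, a subunit of the BRCA1-A complex, rose from 30.6 and 35.9 CPM to 43.8 and 39.9 CPM (0.33, SE 0.0966, adjusted p = 0.0259, edgeR), and its complex partner BABAM1 was higher under the fold (0.29). BABAM2 shares 9.55% of its exon bases with MRPL33 on the same strand, which had 1621 and 1785 counts with sgRNA Ctrl and 2675 and 2624 with sgNPM1A. RPA3, the small subunit of the single-strand binding complex, was higher under the fold (0.30). Of the 53, 27 were negative and 26 positive, with a median of -0.01. Each of the 3 calls was lost when a library was left out: FAN1 was at -0.22 without sgRNA Ctrl library 2, -0.33 without sgNPM1A library 1 and -0.39 without sgNPM1A library 2, SWI5 at 0.38 without sgRNA Ctrl library 1 and 0.45 without sgNPM1A library 2, and BABAM2 at 0.22 without sgRNA Ctrl library 1 and 0.27 without sgNPM1A library 1.

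Because many of these genes are read mostly in replicating cells, cell cycle genes were set beside them, with the members left out of the lists. Of 40 S phase genes, 36 were negative (90%, against 50% of all tested genes), and the median was -0.16. In this list 7 were called lower (17.5%) and 1 higher (2.5%), beside 10.3% and 10.5% of all tested genes. Of 54 G2/M genes, 3 were called lower (5.56%) and 4 higher (7.41%), both under the share of all tested genes, with a median of 0.02. Among the members, 3 are on these lists (BLM, EXO1 and RAD51AP1) and none of them was called. The 41 tested members on neither list had a median of -0.11. Leaving out 3 of 44 members could hardly move the median, so this value does not separate the members from the cell cycle. The part of the S phase level in the members' values was not tested. By promoter, the 6 members with an E2F motif had a median of -0.01, 3 of them negative, and the 32 tested members with a window but no E2F motif a median of -0.11, 24 of them negative.

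**Figure D5:**
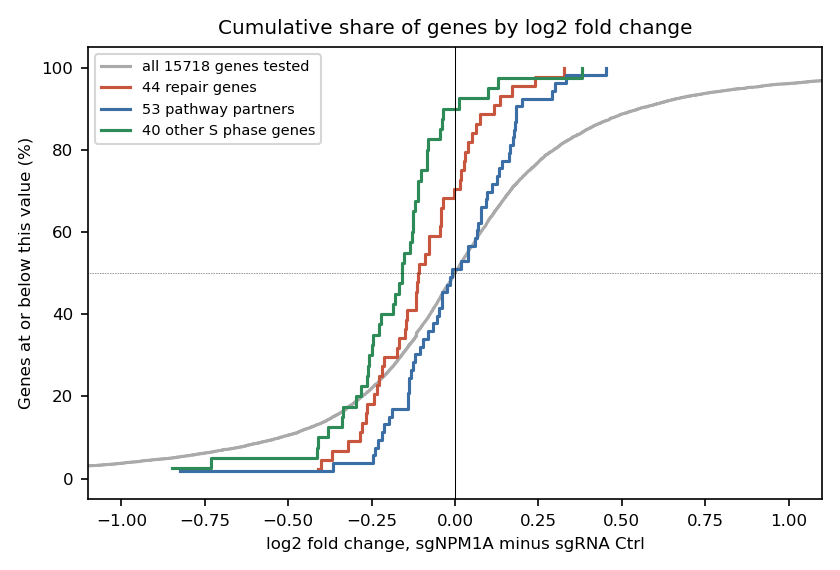
Cumulative share of genes (y axis, percent) by log2 fold change, sgNPM1A minus sgRNA Ctrl (x axis, cut at both ends), for all 15718 tested genes (grey), 44 repair genes (red), 53 pathway partners (blue) and 40 other S phase genes (green). The curve of the repair genes crosses 50% at -0.11, that of the S phase genes at -0.16 and those of the partners and of all genes near zero.

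Some members share a start region with a gene on the other strand, and neighbours were compared there for RefSeq starts within 1000 bases. NBR2, a noncoding RNA whose start lies 193 bases from that of BRCA1 (the capitals in the window above), was at 0.48 (adjusted p = 0.0252, edgeR) while BRCA1 was at -0.15. TMEM167A, 153 bases from XRCC4, was at 0.55 (adjusted p = 0.00107, edgeR) with XRCC4 at 0.01. DESI1, 252 bases from XRCC6, was at 0.38 (adjusted p = 0.00229, edgeR) with XRCC6 at -0.05. In these 3 pairs the neighbour rose and the repair gene was not called. DCTN5 beside PALB2 (-0.13), ANKRD49 beside MRE11 (-0.22), ZFYVE21 beside XRCC3 (-0.10), ABHD13 beside LIG4 (0.21), MOSPD2 beside FANCB (0.37), CRTC3-AS1 beside BLM (-0.12) and NBR1 beside a further start of BRCA1 (-0.06) did not pass the test. The genes facing RAD51C and TP53BP1 within this distance were not among those tested.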

How the data were processed

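RNA-Seq measured gene transcripts in 4 libraries of OCI-AML3 cells, 2 per group, 72 hours after transfection. The authors aligned the reads to hg38 (STAR, Samtools), and the table they deposited holds unnormalized counts for each Ensembl gene; the counting program, its use of strand and the annotation release are not given in the sources used here. Samples were grouped by the labels. The members, the partners and the other lists were chosen with earlier results of these data known. A rule set some of the genes with values: every called member, members past the adjusted p only, the 2 with most reads in each role, and called partners. Values of the other members, and of the partners BABAM1 and RPA3, were given outside this rule.

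From the counts, edgeR 4.0.16 in R 4.3.3 (filterByExpr with a minimum count of 10, TMM, robust quasi-likelihood F test, two-sided, no covariate) compared the groups over 15718 genes; a call needed an adjusted p under 0.05 and a fold of 1.25. CPM are TMM-scaled, ± is the SD of 2 libraries, and intervals are 95%. Alternatives were DESeq2 1.42.0, limma 3.58.1 on quantile-normalized log2 CPM, other scalings, filters and fold thresholds, a replicate block and leaving out each library. The tests were checked on simulated data, where edgeR recovered 91 of 100 planted log2 changes of 1 and 61 of 100 of 0.5, with 2 false calls. The simulation gave every gene the same dispersion and changed few genes. It was thus simpler than the data, and its rates need not hold for them. Replicates differed by more than sampling noise (mean chi-square per gene 9.31 and 4.24), so no library was counted as a copy of another; p-values measure the spread between these libraries, which may be technical. Floors cover counting error only. Positions and promoter windows are those of RefSeq on GRCh38.p14; exon sharing, canonical transcript lengths and shared 50-base words come from a GENCODE annotation on GRCh37, used for gene relations only. Cell cycle lists are those of Seurat 5.3.0. Single values of some listed genes are not reported here.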

Additional observations from a re-analysis of the deposited data

How the results depend on the processing

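The 3 called members were called alike by DESeq2, limma-trend on quantile-normalized values, RLE size factors, both filters on low counts and an unadjusted p with the same fold. Without a fold threshold 4 members were lower, and at a fold of 2 no member and no partner was called in either direction (0). Scaling by library size alone and by upper quartile factors left 0 members higher, since RAD51C dropped under the fold; library size alone also gave 1 partner higher and moved the members' median to -0.15. DESeq2 called 0 partners lower; without a fold threshold 2 partners were lower and 4 higher. With each library left out in turn, members called lower ranged from 1 to 3 and higher from 0 to 1, partners lower from 0 to 2 and higher from 0 to 4, and the members' median from -0.113 to -0.0778. NPM1, under the fold in edgeR at -0.22, passed it with limma-trend at -0.42; the cause was not tested.

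Among the genes named above, signs turned only in members that were not called, the largest of them FANCL (-0.15) and BARD1 (-0.11). Library size alone gave FANCC -0.0227, NBN -0.000624, WRN -0.0122, XRCC4 -0.0264 and LIG4 -0.00937, and limma-trend gave MDC1 0.000363. With libraries left out in turn, log2 fold changes ran from -0.23 to 0.0187 for BARD1, -0.147 to 0.0747 for XRCC3, -0.177 to 0.0275 for RAD52, -0.06003 to 0.0995 for FANCC, -0.286 to 0.0107 for FANCL, -0.0311 to 0.138 for FANCD2, -0.0972 to 0.191 for NBN, -0.0256 to 0.084 for WRN, -0.0667 to 0.00169 for XRCC5, -0.0828 to 0.11 for XRCC4, -0.067 to 0.137 for LIG4, -0.103 to 0.104 for MDC1, -0.162 to 0.0866 for RNF168 and -0.157 to 0.00248 for PARP1. A lone sample in these fits is assumed to vary like the other group.

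Libraries of the same number shared only a number: their deviations correlated at -0.130 over all tested genes and at -0.523 over the 8856 genes above 10 CPM, so that libraries of opposite number deviated together. With the replicate block 2 members were called lower and 1 higher, as without it, while FANCA (adjusted p = 0.0691, edgeR) and UBE2T (0.0814) missed the adjusted p. A crossed block, added after seeing the data, also called 2 lower and 1 higher. Over all tested genes it called 1918 lower and 1955 higher, against 1619 and 1653 without a block. At the adjusted p without the fold it had 14 members lower, against 4 in the fit without a block. The share over all genes at that setting was not computed, so this rise is not read as a result about the members.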
